A study of Mus musculus with 24 samples.

Results

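The genes described here mark the endothelial cells and the mural cells (pericytes and vascular smooth muscle) of blood vessels, and they were taken by name from the gene table of a bulk RNA-seq study of mouse hypothalamus. The set has 36 members among 45706 genes: 23 endothelial, 8 pericyte and 5 smooth muscle genes. All 36 were found, 35 by symbol and Cspg4b by its position, because the table lists it as BC067074, and 35 passed the filter on low counts. Cnn1, with 132 counts over all libraries, was not tested.

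The mice were male DIO animals (diet-induced obesity) with a mean body weight of 53 g, whose strain and age the labels do not state, and each received 1 injection a day for 5 days before being killed 2 h after the last. There were 8 libraries from mice given PSD-95i (UCCB01-147, 25 mg/kg), 8 from mice given PICK1i (mPD5, 56 mg/kg) and 8 from mice given isotonic saline. PSD-95i and PICK1i are inhibitors of PSD-95 (gene Dlg4) and PICK1, scaffold proteins with PDZ domains that hold receptors at synapses. All groups shared the obesity and housing in pairs. The protocol text gives 6 saline mice where the labels give 8 libraries, and nothing ties a library to 1 mouse, so p-values measure only the spread between these libraries, which may be technical in part.

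Endothelial cells line every vessel. In most of the brain they form the blood-brain barrier, where tight junctions seal the wall. Transporters there carry glucose, lipids and hormones in or pump drugs out. In a few sites they carry pores (fenestrae) and leak, such as the median eminence, a part of the hypothalamus, and the pituitary next to it. Pericytes wrap the capillaries and help to keep the barrier, and smooth muscle cells ring the arterioles and contract.

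Depth was 4762697 to 9228843 counts per library (median 7628246), and hypothalamic neuropeptide transcripts were present throughout, with Pmch (melanin-concentrating hormone) at 103.6 CPM (counts scaled to a common library total) or more and Trh (thyrotropin-releasing hormone) at 94.6 CPM or more in all 24 libraries. Saline replicates 2 and 3 also carried anterior pituitary transcripts, which summed to 62848 and 39011 CPM over the list of 10 genes, against at most 68.8 CPM in each of the other 22 libraries. PICK1i replicates 1, 2, 5 and 6 had 13.5 to 16.6% mitochondrial counts and a shift towards short transcripts, with slopes of log2 level on log2 transcript length of -0.172, -0.130, -0.152 and -0.0958. The group medians of that slope were 0.0432 for PSD-95i, -0.0599 for PICK1i and 0.0206 for saline. The part of each of these in the results below was not tested, and in bulk tissue fewer vessel cells and less RNA per vessel cell cannot be told apart.

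**Figure D1:**
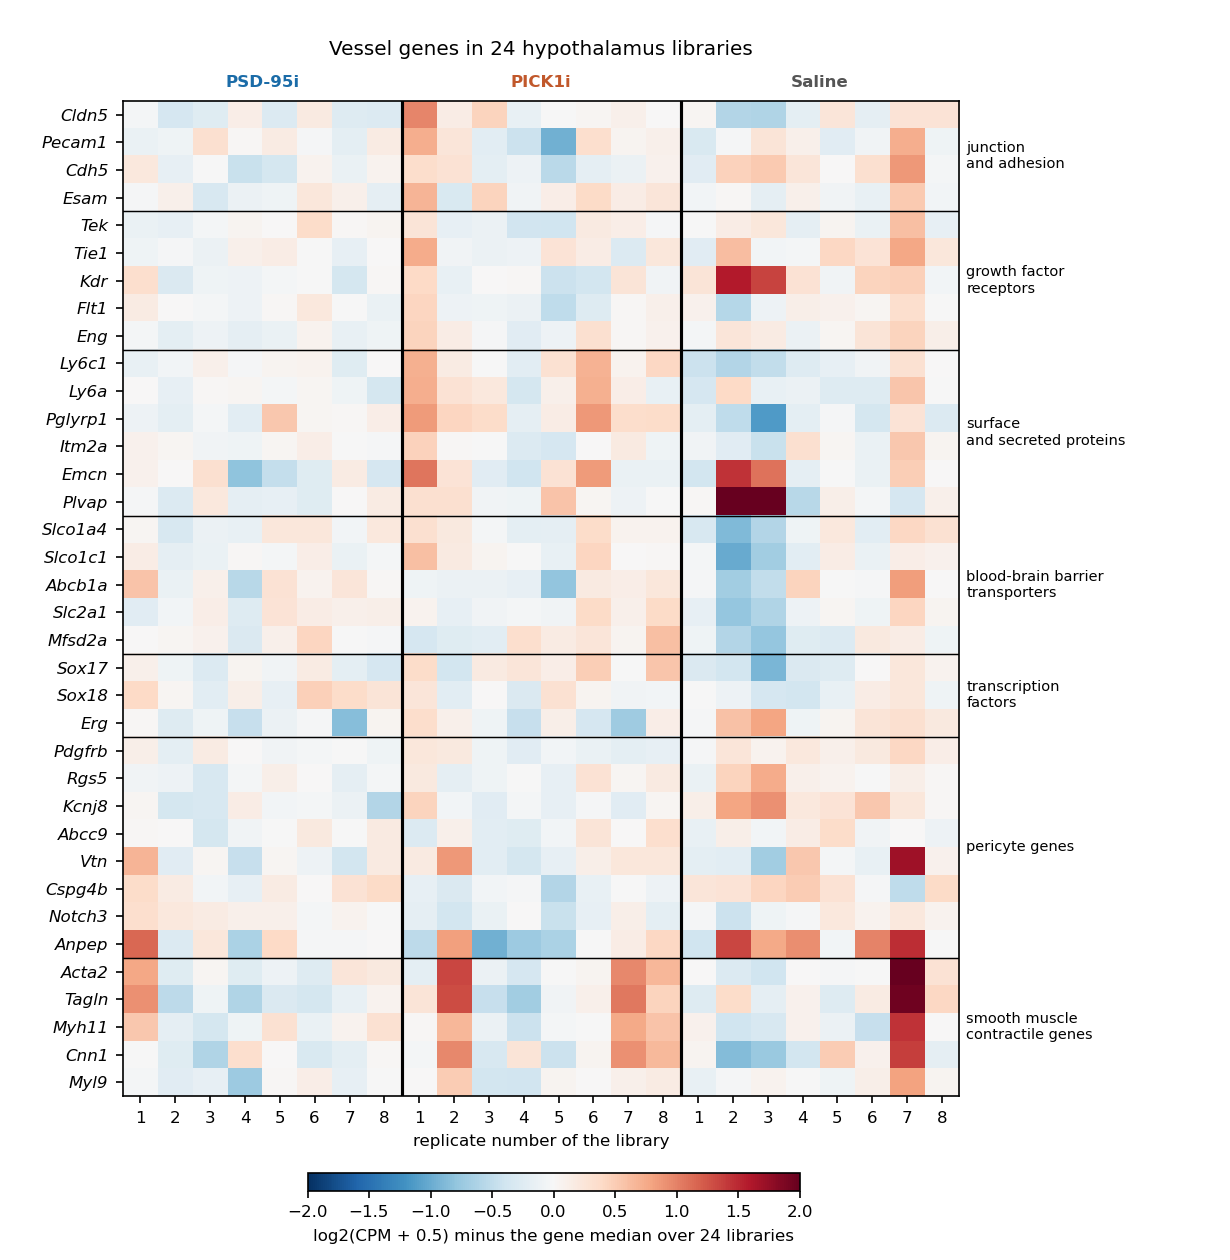
Level of the 36 vessel genes in each of the 24 libraries, as log2(CPM + 0.5) minus the gene's median over all libraries (red higher, blue lower), with genes in rows by role and libraries in columns ordered PSD-95i, PICK1i, saline. Saline replicate 7 was above every other library in 17 genes, and saline replicates 2 and 3 stood together at one end in 14.

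On a per-length scale (TPM), which allows genes to be set beside each other, the most abundant vessel transcripts over the 24 libraries were Slc2a1, the glucose carrier of the barrier, at 109 TPM, and Ly6c1, a surface protein of brain capillaries, at 105 TPM. Vtn (vitronectin, secreted by pericytes) followed at 87.3 TPM, then Itm2a at 53.0 TPM and Rgs5, a regulator of G-protein signalling in pericytes, at 50.1 TPM. The smooth muscle genes were lower, with Myl9 (a myosin light chain) at 32.0 TPM, Acta2 (smooth muscle actin) at 12.4 TPM, Tagln (transgelin) at 8.21 TPM and Cnn1 (calponin) at 0.594 TPM. The endothelial transcription factor Erg, at 1.52 TPM, and Cspg4b, at 1.95 TPM, were the lowest of the tested members. Counts over all libraries were lowest among the tested members for Anpep (780), Kcnj8 (846), Pglyrp1 (932), Sox17 (955) and Erg (958). Counting error weighs more on these genes than on Slc2a1 or Rgs5, with 23526 and 17868 counts.

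Before the treatments are compared, 3 saline libraries need their values set out, because they differ from the other saline libraries in these very genes. Replicates 2 and 3 were higher than each of the other 22 libraries in 6 members, lower than each in 8, and lower than the other saline libraries alone in 7. The high ones included Plvap, which builds the diaphragms of fenestrae and is scarce where the barrier is closed. Plvap reached 90.4 and 74.7 CPM in saline replicates 2 and 3, against 11.7 to 26.4 CPM in the other 22. The other 5 were Kdr, Emcn, Erg, Rgs5 and Kcnj8. Emcn (endomucin, a surface sialomucin of capillaries and veins) measured 18.5 and 14.4 CPM in them. The low ones were mostly genes of the closed barrier: the tight-junction protein Cldn5 (15.5 and 15.2 CPM), the carriers Slc2a1, Mfsd2a, Slco1a4 and Slco1c1, and also Ly6c1, Pglyrp1 and Cnn1. Summed over the 5 barrier transporters, the level was 131 and 149 CPM in replicates 2 and 3, against 194 to 306 CPM in the other 22. Over all tested genes, 12.8% were highest and 10.4% lowest in this pair of libraries together.

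**Figure D2:**
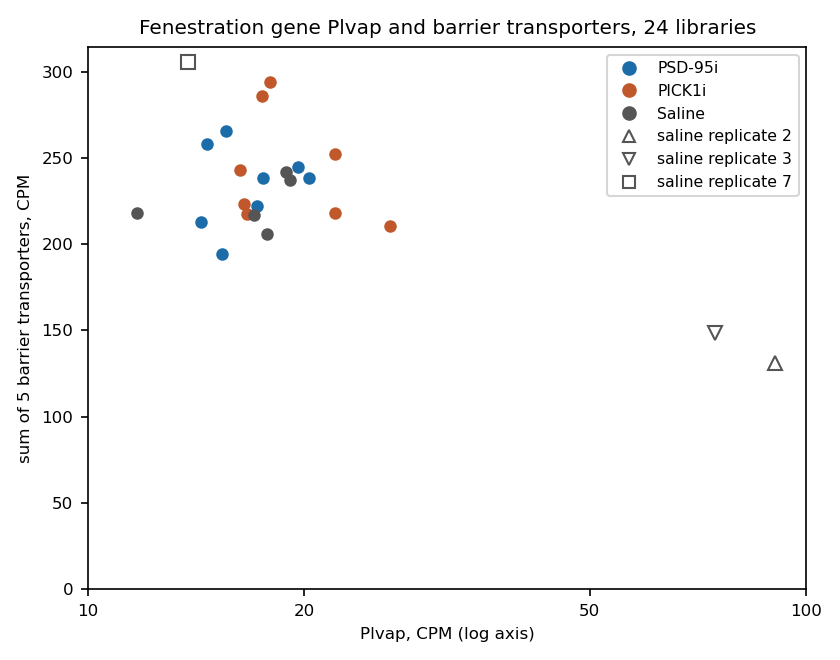
Level of Plvap in CPM (horizontal log axis) and summed level of the 5 blood-brain barrier transporters in CPM (vertical axis), 1 point a library, for PSD-95i, PICK1i and saline. Saline replicates 2 and 3, with 90.4 and 74.7 CPM of Plvap and 131 and 149 CPM of transporters, lie apart from the other 22 libraries, in which Plvap was at most 26.4 CPM and the transporters at least 194 CPM.

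Saline replicate 7 differed in another way, since most endothelial genes, all smooth muscle genes and some pericyte genes were high in it. It was above every other library in 17 members (9 endothelial, 3 pericyte and all 5 smooth muscle genes), where 2.83% of all tested genes were, and above the other saline libraries alone in 8 more. It was below every other library in 0 members, where 1.42% of all tested genes were. Against the median of the other 7 saline libraries, its level was 4.25 times for Acta2, 3.84 times for Tagln, 3.63 times for Vtn and 3.06 times for Myh11 (smooth muscle myosin). Endothelial members stood less far out, with 1.82 times for Abcb1a and 1.78 times for Pecam1. Plvap and Cspg4b went the other way, at 0.731 and 0.551 times. The pericyte genes Rgs5, Abcc9 and Kcnj8 stood near the other saline libraries, at 1.04, 1.05 and 0.971 times. Much of the high pericyte sum of replicate 7 was thus Vtn, at 164 CPM against a mean of 48.2 CPM in the other 7 saline libraries. The summed level of leptomeningeal fibroblast markers, at 638 CPM, and that of perivascular macrophage markers, at 17.1 CPM, were also the highest of the 24 libraries there. PICK1i replicate 1 was the highest library in 6 endothelial members, among them Cldn5 (46.7 CPM), Flt1 (110 CPM) and Slco1c1 (41.1 CPM).

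The total vessel signal of the 3 groups overlapped widely. Summed over the 23 endothelial genes, the level averaged 586 ± 36 CPM with PSD-95i, 626 ± 83.4 CPM with PICK1i and 606 ± 78.2 CPM with saline (SD, n = 8 each). Summed over the 8 pericyte genes, it averaged 223 ± 20.5 CPM with PSD-95i, 228 ± 23.3 CPM with PICK1i and 260 ± 48.1 CPM with saline. The smooth muscle genes summed to 41.5 ± 8.60 CPM with PSD-95i, 49.8 ± 17.6 CPM with PICK1i and 50.9 ± 29.98 CPM with saline. In all 3 sums the highest saline library was replicate 7, at 793, 365 and 125 CPM, and without it the saline means were 579 ± 21, 246 ± 25.2 and 40.4 ± 3.34 CPM (n = 7). Without replicates 2, 3 and 7 they were 583 ± 24.2, 235 ± 21.2 and 41.7 ± 3.01 CPM (n = 5). With all libraries, the difference in the smooth muscle sum between each inhibitor and saline was smaller than the spread between saline libraries. Its sign turned with both inhibitors when replicate 7 alone was left out. The saline mean was then 40.4 ± 3.34 CPM, below 41.5 ± 8.60 CPM with PSD-95i and 49.8 ± 17.6 CPM with PICK1i.

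**Figure D3:**
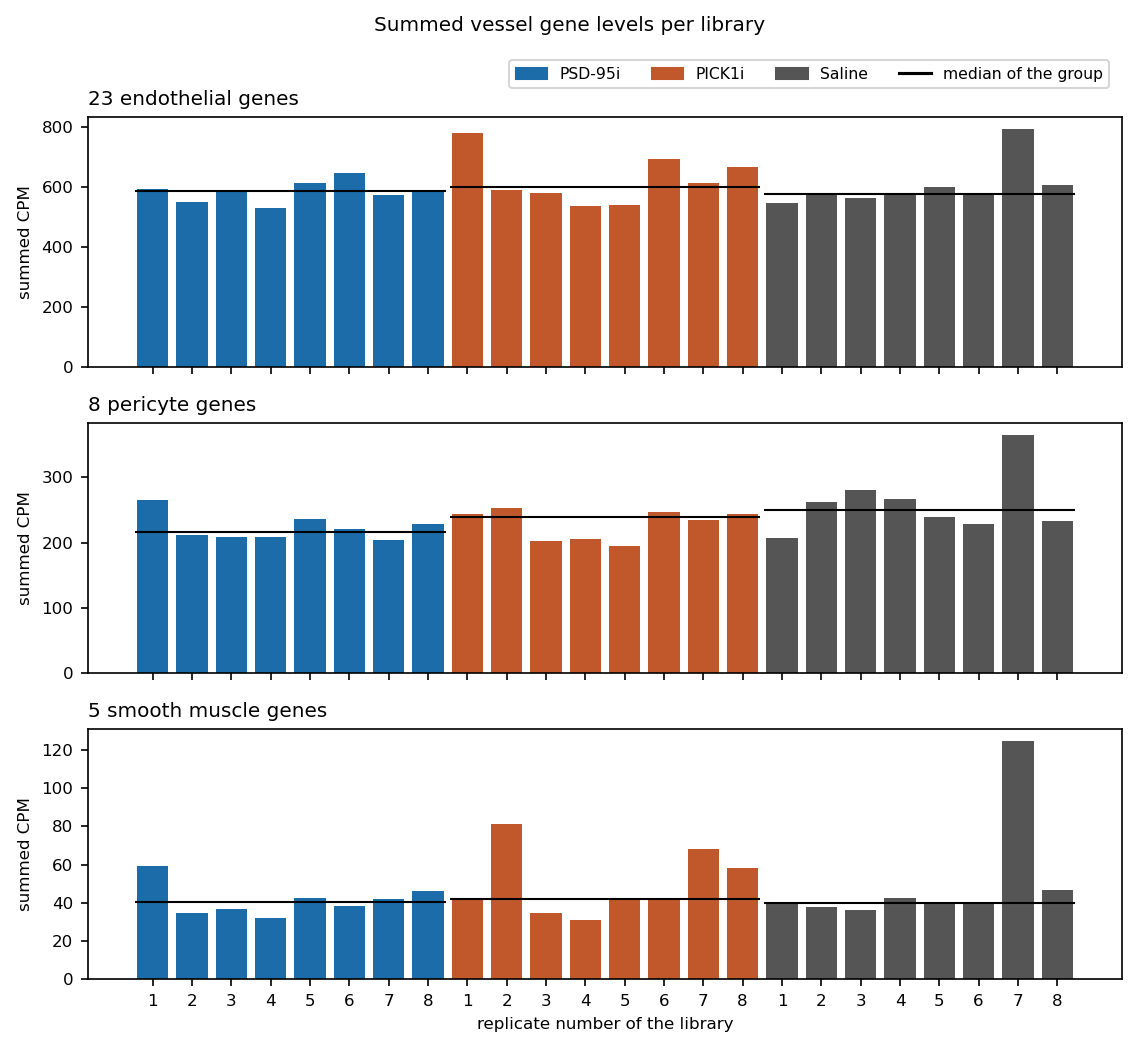
Summed CPM of the endothelial, pericyte and smooth muscle genes in each library (bars, numbered by replicate) with the median of each group of 8 as a line, for PSD-95i, PICK1i and saline from left to right. Saline replicate 7 is the tallest bar of each panel, at 793, 365 and 125 CPM, and the other libraries of the 3 groups overlap.

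The first comparison asked how the vessel genes stood after PSD-95i against saline. None of the 35 tested members changed by edgeR's quasi-likelihood test with Benjamini-Hochberg adjustment over all genes (threshold 0.05), where 0% of all 15667 genes were called. DESeq2 and limma-voom also called 0 members. At an unadjusted p under 0.05 there were 11 of the 35 members, a higher share than the 11% of all genes. Without saline replicates 2, 3 and 7 there were 2 members, where 2.05% of all genes passed. The log2 fold changes of the 35 had a median of -0.08 (-0.96 to 0.32), 11 above 0 and 24 below, against a median of -0.003 over all genes. No member's libraries separated completely between PSD-95i and saline, where 0.0574% of all genes did.

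Among members, the lowest unadjusted p-values with PSD-95i were those of Kcnj8 and Kdr. Kcnj8, the pore subunit of the potassium channel that pericytes build with Abcc9, measured 2.84, 4.21 and 5.01 CPM (lowest, median, highest library) with PSD-95i and 4.56, 5.44 and 8.87 CPM with saline. All 8 PSD-95i libraries lay below the saline median, and the groups overlapped between 4.56 and 5.01 CPM. The log2 fold change of Kcnj8 was -0.61 ± 0.15 (SE; edgeR adjusted p = 0.31), and -0.42 ± 0.14 without saline replicates 2 and 3. Its channel partner Abcc9, the sulphonylurea receptor, had -0.04 ± 0.10. Plvap had the largest fold change of the members with PSD-95i, -0.96 ± 0.33 (edgeR adjusted p = 0.356), and this reversed to 0.04 ± 0.12 without saline replicates 2 and 3. Emcn, at -0.59 ± 0.27 (edgeR adjusted p = 0.433), was at -0.12 ± 0.22 without them. The 5 barrier transporters had log2 fold changes of 0.03 to 0.25, all above 0, and 1 of the 5 remained above 0 without saline replicates 2 and 3 (median -0.04).

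The second comparison set PICK1i against saline, the same saline libraries as before, so the 2 sets of fold changes share their reference. Of the 35 tested members, 5 changed, 2 up and 3 down, where 9.15% of all genes were called (4.88% higher, 4.27% lower). Ly6c1 and Pglyrp1, both made by endothelial cells, rose, and Kdr, the main receptor for vascular endothelial growth factor (VEGF), fell together with the pericyte genes Kcnj8 and Cspg4b. The other 30 did not pass, among them all junction genes, all 5 barrier transporters, all 3 endothelial transcription factors and the 4 smooth muscle genes tested. The median log2 fold change was -0.06 (-0.91 to 0.73), with 12 above 0 and 23 below, against -0.009 over all genes. No member's libraries separated completely between PICK1i and saline, where 0.179% of all genes did.

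The 5 calls rested on the saline group as it was deposited. With saline replicates 2 and 3 left out, 0 of 35 members passed by edgeR's quasi-likelihood test, where 0.0316% of all genes did, and at unadjusted p that comparison held 24.3% of all genes against 28.8% with all libraries. Without replicates 2, 3 and 7, again 0 passed. Without replicate 7 alone 6 passed, the 5 and Sox17, where 10% of all genes did. Leaving out PICK1i replicates 1, 2, 5 and 6, those with high mitochondrial shares, gave 0 members and 0 genes, as did a fit to the PICK1i and saline libraries alone, whose spread is estimated without the PSD-95i libraries. Over the alternatives that tested each gene, the call held in 30 of 35 for Pglyrp1, 26 of 36 for Ly6c1, 23 of 36 for Kdr, 16 of 35 for Kcnj8 and 11 of 36 for Cspg4b. Those alternatives include 24 that left out a single library, 8 of them PSD-95i libraries, which are not compared here. In these 24 the call held in 24 for Pglyrp1, 20 for Ly6c1, 19 for Kdr, 13 for Kcnj8 and 8 for Cspg4b.

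**Figure D4:**
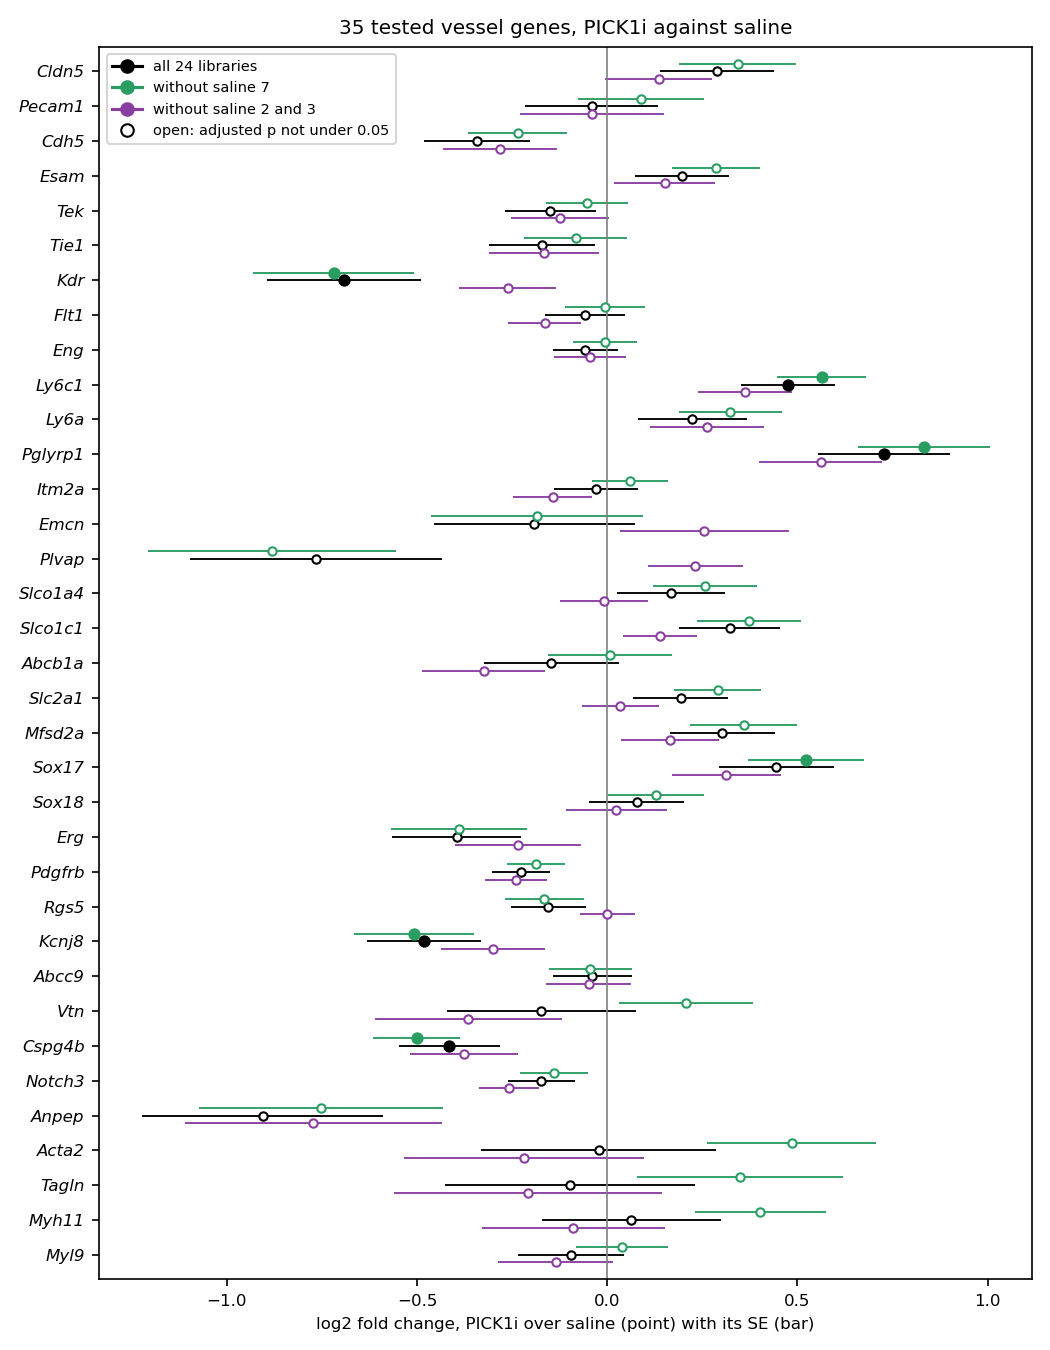
Log2 fold change of each tested member with PICK1i against saline, with bars of 1 SE, for all libraries (black), without saline replicate 7 (green) and without saline replicates 2 and 3 (purple), filled where the adjusted p was under 0.05. Plvap moves from -0.77 to 0.23 and Kdr from -0.69 to -0.26 when saline replicates 2 and 3 are left out, whereas Pglyrp1 moves from 0.73 to 0.56 and Cspg4b from -0.41 to -0.38.

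Junction and adhesion genes hold the vessel wall together. Cldn5, the claudin that seals brain capillaries, measured 21.1, 24.7 and 46.7 CPM with PICK1i and 15.2, 22.4 and 28.5 CPM with saline (lowest, median, highest), with the groups overlapping. Its log2 fold change was 0.29 ± 0.15 (edgeR adjusted p = 0.199). Cdh5 (VE-cadherin, of the adherens junction) measured 13.2, 18 and 25 CPM with PICK1i and 16.6, 23.7 and 36.1 CPM with saline, a log2 fold change of -0.34 ± 0.14 (edgeR adjusted p = 0.108). With PSD-95i Cdh5 lay below the saline median in all 8 libraries, at -0.39 ± 0.14 (edgeR adjusted p = 0.359). The highest saline values of Cdh5, 36.1, 28.3 and 26.9 CPM, were those of replicates 7, 3 and 2. Its saline mean was 24.2 CPM with them and 20.5 CPM without, against 18.4 CPM with PSD-95i and 19.1 CPM with PICK1i. Without those saline libraries, PSD-95i replicates 1, 6 and 8 lay above the saline median. Pecam1 (CD31) and Esam, both adhesion proteins of the endothelium, had log2 fold changes of -0.04 and 0.20 with PICK1i and of -0.05 and -0.07 with PSD-95i.

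Of the growth factor receptors, Kdr (VEGFR2, chromosome 5, GRCm38 75932827 to 75978458, minus strand) was the one that changed. It measured 9.39, 12.5 and 16.9 CPM with PICK1i, 9.93, 12.2 and 16.2 CPM with PSD-95i and 12.1, 16.7 and 39.5 CPM with saline. Saline replicates 2 and 3 held the highest values, 39.5 and 33.5 CPM, and the other 6 saline libraries spanned 12.1 to 17.9 CPM, within reach of both inhibitor groups. Kdr fell with PICK1i by 0.69 ± 0.20 on the log2 scale (edgeR adjusted p = 0.0350), and its value without saline replicates 2 and 3 was -0.26 ± 0.13 (edgeR adjusted p = 0.208). The call was also lost without any 1 of PICK1i replicates 2, 5 and 6 and saline replicates 2 and 3, and held without each of the other 19 libraries. With PSD-95i the value was -0.73 ± 0.20 (edgeR adjusted p = 0.31). The angiopoietin receptor Tek (TIE2) had -0.15 ± 0.12 with PICK1i and -0.07 ± 0.12 with PSD-95i. Its partner Tie1 had -0.17 ± 0.14 and -0.32 ± 0.14. Eng (endoglin), a co-receptor for BMP9 and TGF-beta, had -0.06 ± 0.09 with PICK1i and -0.25 ± 0.09 with PSD-95i, below the saline median in all 8 PSD-95i libraries (edgeR adjusted p = 0.356). Without saline replicates 2, 3 and 7 the saline median of Eng was 26.8 CPM, and PSD-95i replicate 6 lay above it at 27.3 CPM. Saline replicate 7 was the highest of all libraries for Tek, Tie1 and Eng, at 19.3, 20.4 and 35.8 CPM.

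Flt1 (VEGFR1, chromosome 5, 147561604 to 147726011, minus strand) was the most abundant of these receptors, at 30.4 TPM, and differed little in level, its log2 fold change being -0.06 ± 0.11 with PICK1i and 0.00 ± 0.11 with PSD-95i. Flt1 makes both a receptor anchored in the membrane and a shorter secreted one that traps VEGF and placental growth factor, and the transcript table separates them. The 2 coding sequences share their first exons and part at coding base 1973, where the soluble form reads on into the intron, and they are shown there because this junction is what tells the forms apart. They are from GENCODE M21 on GRCm38, minus strand, with 30 shared bases (chr5:147639225-147639254) in lower case and the first 60 bases particular to each transcript in capitals, at chr5:147634464-147634523 for the membrane form and chr5:147639165-147639224 for the soluble form.
Flt1-202, membrane-bound: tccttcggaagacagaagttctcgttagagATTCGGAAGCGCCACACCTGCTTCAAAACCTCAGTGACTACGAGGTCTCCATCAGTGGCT
Flt1-203, soluble: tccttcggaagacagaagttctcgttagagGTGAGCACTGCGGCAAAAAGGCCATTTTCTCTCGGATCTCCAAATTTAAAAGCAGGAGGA
The membrane form, of 1333 residues, took 60.5% of Flt1 counts over all libraries, and the soluble form, of 688 residues, took 26%. The soluble share was 25.3 ± 1.99% with PSD-95i (22.4 to 28.0%), 26.8 ± 3.63% with PICK1i (22.2 to 32.3%) and 26.4 ± 2.39% with saline (23.3 to 29.0%; SD, n = 8 each), and the 3 groups overlapped over most of their range. The difference was -1.04 percentage points for PSD-95i against saline (exact permutation p = 0.354, two-sided, 12870 splits, 0.531 adjusted over 3 comparisons), 0.435 points for PICK1i against saline (exact permutation p = 0.777, adjusted 0.777) and -1.47 points between PSD-95i and PICK1i (exact permutation p = 0.330, adjusted 0.531). With 306 to 810 Flt1 counts a library and assignment to transcripts that is itself estimated, a shift smaller than the spread of a few percentage points was not detectable.

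Surface and secreted proteins held both of the rises. Pglyrp1 (chromosome 7, 18871331 to 18890459, plus strand), a peptidoglycan-binding protein of innate immunity also made by brain endothelium, measured 4.37, 6.60 and 9.53 CPM with PICK1i, 4.25, 4.96 and 7.47 CPM with PSD-95i and 2.01, 4.17 and 6.12 CPM with saline. All 8 libraries of each inhibitor were above the saline median, and the ranges overlapped. The lowest saline value was that of replicate 3 (replicate 2 had 3.36 CPM) and the highest that of replicate 7. Pglyrp1 rose with PICK1i by 0.73 ± 0.17 on the log2 scale (edgeR adjusted p = 0.0197), with 0.56 ± 0.16 (edgeR adjusted p = 0.0730) without saline replicates 2 and 3. It passed without each single library in turn, 24 of 24. With PSD-95i its value was 0.32 ± 0.18 (edgeR adjusted p = 0.496).

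Ly6c1 (chromosome 15, 75044018 to 75048830, minus strand), a membrane-anchored protein of the Ly6 family that is abundant on brain capillaries, measured 29.0, 39.9 and 55.5 CPM with PICK1i, 28.4, 33.5 and 36.1 CPM with PSD-95i and 22.2, 29.2 and 41.7 CPM with saline. Of the 8 PICK1i libraries, 7 were above the saline median, with replicate 1 the highest, and saline replicates 2 and 3 were the lowest of all 24, at 22.2 and 23.9 CPM. It rose with PICK1i by 0.48 ± 0.12 on the log2 scale (edgeR adjusted p = 0.0236), with 0.36 ± 0.12 (edgeR adjusted p = 0.0906) without those 2 and 0.56 ± 0.12 (edgeR adjusted p = 0.0156) without saline replicate 7. The call was lost without any 1 of PICK1i replicates 1, 5 and 6 and saline replicate 2. With PSD-95i the value was 0.16 ± 0.12 (edgeR adjusted p = 0.627). Ly6c1 has a close copy, Ly6c2, at 4.23 ± 0.694 CPM with PICK1i and 3.23 ± 1.23 CPM with saline, and how the authors' counting divided reads between them is not known. The related Ly6a measured 14.1, 20.4 and 30.1 CPM with PICK1i and 14.2, 16.4 and 26.8 CPM with saline, a log2 fold change of 0.22 ± 0.14 that did not pass (edgeR adjusted p = 0.304).

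Ly6c1 and Pglyrp1 have short transcripts, with mean lengths of 671 and 694 bases weighted by counts, whereas Kdr, Kcnj8 and Cspg4b have 5534, 2269 and 7829 bases. The median over all genes tested was 2763 bases, that of all genes higher with PICK1i 1610 bases and that of all genes lower 4401 bases. With an offset for a smooth trend of level with transcript length, chosen after seeing the data, Kcnj8 alone of the 5 passed, at -0.51 ± 0.15 (edgeR adjusted p = 0.0476). Pglyrp1 then had 0.57 ± 0.17 (edgeR adjusted p = 0.0504), Kdr -0.60 ± 0.21 (edgeR adjusted p = 0.0780), Ly6c1 0.31 ± 0.11 (edgeR adjusted p = 0.0893) and Cspg4b -0.30 ± 0.12 (edgeR adjusted p = 0.126). All 5 kept their sign, and 4.56% of all genes were called.

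The promoters of the 3 endothelial genes that changed are shown because 2 rose and 1 fell in the same libraries. They are the 250 bases before the start in RefSeq (GRCm38.p6), with matches to AGGAAG or its reverse complement CTTCCT in capitals. These 6 bases are 1 longer form of GGAA, the core of the sites bound by ETS factors such as Erg.
Pglyrp1, chr7:18884440-18884689, plus strand: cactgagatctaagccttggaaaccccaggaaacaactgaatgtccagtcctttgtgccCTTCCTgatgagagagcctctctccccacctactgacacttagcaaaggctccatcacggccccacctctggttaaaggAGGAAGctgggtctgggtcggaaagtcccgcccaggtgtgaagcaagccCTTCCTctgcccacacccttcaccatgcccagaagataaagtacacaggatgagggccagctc
Ly6c1, chr15:75048838-75049087, minus strand: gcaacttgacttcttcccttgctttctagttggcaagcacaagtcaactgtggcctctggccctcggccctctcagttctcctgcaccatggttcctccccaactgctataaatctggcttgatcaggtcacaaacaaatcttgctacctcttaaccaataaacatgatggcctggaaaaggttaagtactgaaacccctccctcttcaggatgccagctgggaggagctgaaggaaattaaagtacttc
Kdr, chr5:75978456-75978705, minus strand: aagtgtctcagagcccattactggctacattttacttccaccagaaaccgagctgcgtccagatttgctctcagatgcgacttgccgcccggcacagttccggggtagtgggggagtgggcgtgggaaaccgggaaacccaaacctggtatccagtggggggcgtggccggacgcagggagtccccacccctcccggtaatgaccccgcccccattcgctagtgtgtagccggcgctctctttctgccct
The Pglyrp1 window held 3 matches to the 6 bases, the first 191 bases before the start, and the Ly6c1 and Kdr windows shown held 0. The shorter GGAA or its reverse complement TTCC occurs in all 3 windows shown, so 0 matches does not mean that the core is absent. RefSeq has a second start for Ly6c1, whose window, not printed here, held 3 matches. Over both strands, 29.5% of 32851 promoter windows held the 6 bases, and 11 of the 29 windows of the 26 members with a RefSeq entry did.

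The remaining surface genes did not pass in either comparison. Plvap (chromosome 8, 71497765 to 71511752, minus strand) measured 16.3, 17.7 and 26.4 CPM with PICK1i, 14.4, 16.4 and 20.3 CPM with PSD-95i and 11.7, 18.3 and 90.4 CPM with saline. Without saline replicates 2 and 3 the highest saline value was 19.1 CPM, and the log2 fold change with PICK1i turned from -0.77 ± 0.33 (edgeR adjusted p = 0.128) to 0.23 ± 0.12 (edgeR adjusted p = 0.246). Emcn had -0.19 ± 0.26 with all libraries and 0.26 ± 0.22 without that pair. Itm2a, a membrane protein of brain endothelium, had -0.03 ± 0.11 with PICK1i and the same with PSD-95i.

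The blood-brain barrier transporters had medians above 0 against saline in both comparisons. With PICK1i the median over the 5 was 0.19 on the log2 scale (4 above 0), and without saline replicates 2 and 3 it was 0.03. Slco1c1, which carries thyroid hormone, measured 24.1, 27.6 and 41.1 CPM with PICK1i and 13.1, 25.2 and 29.8 CPM with saline, and had 0.32 ± 0.13 (edgeR adjusted p = 0.110). The saline values at the bottom were those of replicates 2 and 3, 13.1 and 16.4 CPM. Mfsd2a, which carries lysophospholipids with docosahexaenoic acid into the brain, had 0.30 ± 0.14 (edgeR adjusted p = 0.149). Slc2a1 (GLUT1), Slco1a4 (an organic anion carrier) and Abcb1a (P-glycoprotein, a drug pump) had 0.19, 0.17 and -0.15, each with an SE of at most 0.18, and the near copy Abcb1b averaged 5.51 CPM with PICK1i and 6.58 CPM with saline.

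The endothelial transcription factors differed in direction. Sox17 measured 4.14, 6.47 and 8.37 CPM with PICK1i and 2.68, 4.49 and 6.50 CPM with saline, with 7 of 8 PICK1i libraries above the saline median. Its log2 fold change of 0.44 ± 0.15 missed the threshold (edgeR adjusted p = 0.0605) and passed without saline replicate 7 (0.52, edgeR adjusted p = 0.0335). Saline replicates 2 and 3 held its lowest saline values, 4.17 and 2.68 CPM, and without them it did not pass. The saline mean was 4.76 CPM with that pair and 5.21 CPM without it, against 6.53 CPM with PICK1i. Erg measured 3.10, 5.47 and 7.09 CPM with PICK1i and 5.06, 6.44 and 9.71 CPM with saline. It had -0.40 ± 0.17 (edgeR adjusted p = 0.125) with PICK1i and -0.51 ± 0.17 (edgeR adjusted p = 0.356) with PSD-95i. Its highest saline values, 8.34 and 9.71 CPM, were those of replicates 2 and 3, and its saline mean was 6.73 CPM with them and 5.97 CPM without. Sox18 had 0.08 ± 0.12 with PICK1i and 0.27 ± 0.12 with PSD-95i.

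All 8 pericyte genes had log2 fold changes below 0 with PICK1i (median -0.20), 2 of them past the threshold. That all were below 0 depended on single saline libraries. Rgs5 averaged 101.4 CPM with PICK1i and 112.9 CPM with saline, but 100.7 CPM with saline without replicates 2 and 3. Vtn averaged 55.8 CPM with PICK1i and 62.6 CPM with saline, but 48.2 CPM with saline without replicate 7. Kcnj8 (chromosome 6, 142564837 to 142571614, minus strand) measured 3.75, 4.33 and 6.30 CPM with PICK1i, and 7 of 8 libraries were below the saline median of 5.44 CPM. The highest saline values, 8.11 and 8.87 CPM, were those of replicates 2 and 3. It fell with PICK1i by 0.48 ± 0.15 on the log2 scale (edgeR adjusted p = 0.0445), with -0.30 ± 0.14 (edgeR adjusted p = 0.179) without saline replicates 2 and 3. The call held without 13 of the 24 single libraries and was lost without any 1 of PSD-95i replicates 3 and 7, PICK1i replicates 2, 3, 5, 6 and 8, and saline replicates 2, 3, 4 and 6.

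Cspg4b (chromosome 13, 113293159 to 113379711, plus strand), a relative of the pericyte proteoglycan gene Cspg4, measured 4.28, 6.11 and 6.64 CPM with PICK1i, 5.93, 7.58 and 8.91 CPM with PSD-95i and 4.59, 8.28 and 9.74 CPM with saline. All 8 PICK1i libraries were below the saline median, and the groups overlapped, with saline replicate 7 the lowest saline library at 4.59 CPM and the next at 6.60 CPM. It fell with PICK1i by 0.41 ± 0.13 on the log2 scale (edgeR adjusted p = 0.0476), and its value was -0.50 ± 0.11 (edgeR adjusted p = 0.0177) without replicate 7 and -0.38 ± 0.14 (edgeR adjusted p = 0.112) without replicates 2 and 3. The call held without 8 of the 24 single libraries and was lost without any 1 of PSD-95i replicates 2, 3, 5, 6 and 7, PICK1i replicates 1, 2, 5, 6 and 8, and saline replicates 1, 2, 3, 4, 5 and 8. With PSD-95i the value was -0.07 ± 0.13 (edgeR adjusted p = 0.851).

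**Figure D5:**
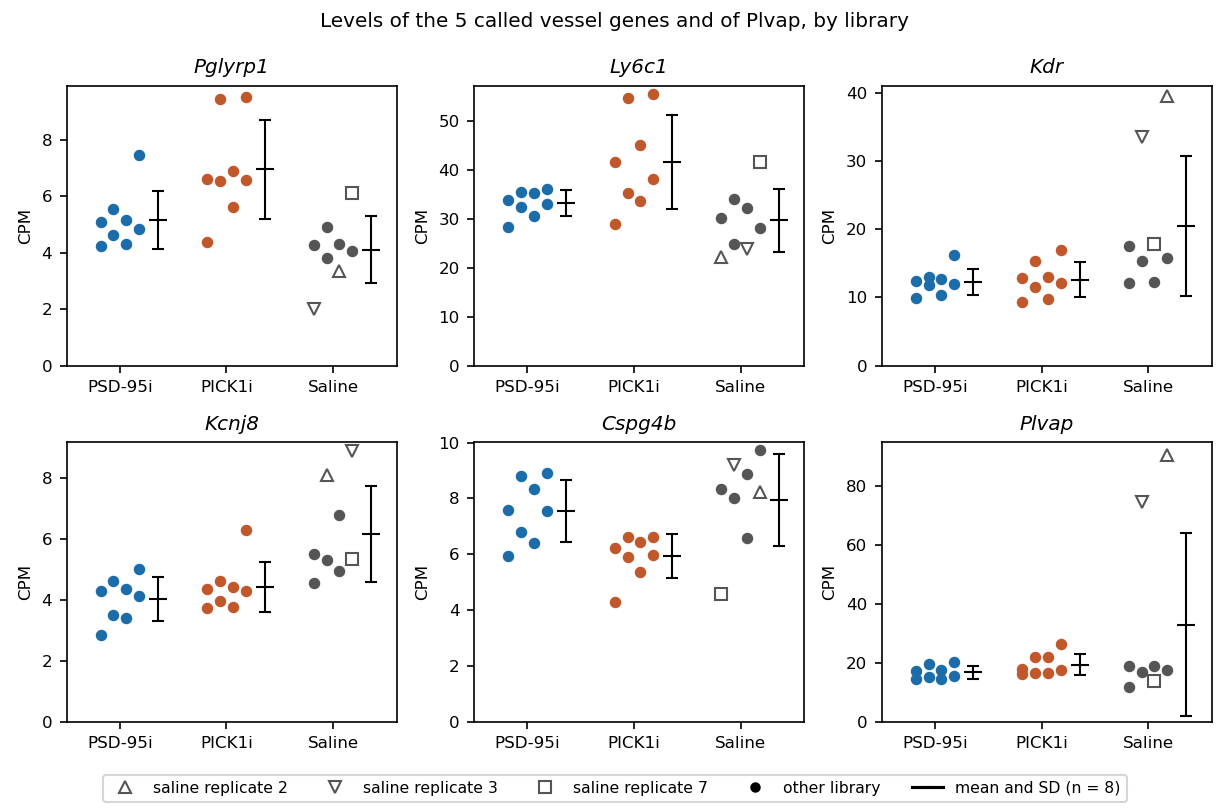
Level in CPM of Pglyrp1, Ly6c1, Kdr, Kcnj8, Cspg4b and Plvap in each library of PSD-95i, PICK1i and saline (left to right), with the mean and SD of each group (n = 8) and saline replicates 2, 3 and 7 as open symbols. Saline replicates 2 and 3 give the 2 highest values of Kdr (39.5 and 33.5 CPM) and the 2 lowest of Ly6c1 (22.2 and 23.9 CPM), and saline replicate 7 gives the lowest saline value of Cspg4b (4.59 CPM).

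Among the other pericyte genes, Pdgfrb, the receptor through which endothelial PDGF recruits pericytes, measured 19.6, 21.2 and 26.8 CPM with PICK1i and 22.5, 25.8 and 30.6 CPM with saline. Its log2 fold change was -0.23 ± 0.08 (edgeR adjusted p = 0.0577) with PICK1i and -0.18 ± 0.08 (edgeR adjusted p = 0.409) with PSD-95i. Anpep (aminopeptidase N) lay below the saline median in all 8 PICK1i libraries, at 1.48, 2.74 and 6.29 CPM against 2.41, 6.40 and 10.2 CPM with saline, and had -0.91 ± 0.32 (edgeR adjusted p = 0.0659), the lowest log2 fold change of the 35. Its highest saline values, 10.2 and 9.15 CPM, were those of replicates 7 and 2. Without replicates 2, 3 and 7 the saline median was 3.33 CPM. PICK1i replicates 2, 7 and 8, at 6.29, 3.75 and 4.62 CPM, lay above that. Anpep is also made by leptomeningeal fibroblasts, whose marker list is given further on. Rgs5 had -0.16 ± 0.10 and Vtn -0.17 ± 0.25 with PICK1i, and Vtn was 0.21 ± 0.18 without saline replicate 7. Abcc9 had -0.04 ± 0.10.

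No smooth muscle gene passed in any comparison. With PICK1i, Acta2 had -0.02 ± 0.31, Tagln -0.10 ± 0.33, Myh11 0.06 ± 0.23 and Myl9 -0.10 ± 0.14 on the log2 scale. Without saline replicate 7 the same 4 genes had 0.48 ± 0.22, 0.35 ± 0.27, 0.40 ± 0.17 and 0.04 ± 0.12, with edgeR adjusted p-values of 0.121 or more. With PSD-95i all 4 were below 0 with every library (median -0.32), and 2 of 4 were below 0 without replicate 7 (median 0.01). Cnn1 measured 0.242 to 0.912 CPM with PSD-95i, 0.330 to 1.69 CPM with PICK1i and 0.116 to 2.42 CPM with saline.

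The third comparison set PSD-95i against PICK1i and used no saline library for its fold changes. None of the 35 members differed by edgeR's quasi-likelihood test, where 0% of all genes did. At an unadjusted p under 0.05 there were 9 of the 35, where 24.2% of all genes passed. The median log2 fold change was -0.12 (-0.47 to 0.34), 9 above 0 and 26 below, against -0.010 over all genes. No member separated the 2 groups completely, where 0.0511% of all genes did. The lowest p belonged to Notch3 (chromosome 17, 32120820 to 32166852, minus strand), a receptor of mural cells that keeps smooth muscle mature. Notch3 measured 25.9, 28.8 and 34.1 CPM with PSD-95i and 19.6, 23.7 and 28.9 CPM with PICK1i, and all 8 PSD-95i libraries were above the PICK1i median. The log2 fold change was 0.29 ± 0.09 (edgeR adjusted p = 0.0635). Saline replicates 2 and 3 had 19.8 and 25.1 CPM, and the other 6 saline libraries 26.2 to 31.1 CPM. Against saline, Notch3 had -0.17 ± 0.09 with PICK1i (edgeR adjusted p = 0.187) and 0.11 ± 0.09 with PSD-95i (edgeR adjusted p = 0.609). Its transcripts are long, 8016 bases on average. With saline replicates 2 and 3 left out of the fit, which changes the scaling, the estimate of spread and the genes tested (15820) but not the libraries compared, 1 member (Notch3) was called, where 7.64% of all genes were, and without replicates 2, 3 and 7 also 1, where 6.38% were. Single libraries also decided this count, with 2 members called without PICK1i replicate 4, and 1 without PICK1i replicate 7 or saline replicate 2. Ly6c1 (-0.32 ± 0.12), Cspg4b (0.34 ± 0.13), Cldn5 (-0.37 ± 0.15) and Pglyrp1 (-0.41 ± 0.17) followed, with edgeR adjusted p-values of 0.116 to 0.144.

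Other genes of the vessel pathways, in 11 lists by role, were read in the same fit. Of 139 genes, 131 were tested, and 15 changed with PICK1i against saline, 4 up and 11 down, where 9.15% of all genes did (4.88% higher, 4.27% lower). Their median log2 fold change was -0.07 (48 above 0, 83 below). With saline replicates 2 and 3 left out, 0 of them passed by edgeR's quasi-likelihood test, where 0.0316% of all genes did, and without PICK1i replicates 1, 2, 5 and 6 also 0. In the other comparisons 0 of the 131 passed with all libraries. Without saline replicates 2 and 3, PSD-95i against PICK1i called 8 of 131, among them Vegfa, Podxl, Ackr1 and Sncg, where 7.64% of all genes were called.

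Among ligands and co-receptors of the growth factor receptors, 4 of 13 changed. Vegfb, a ligand of Flt1, averaged 66.8 CPM with PICK1i and 52.4 CPM with saline and rose by 0.34 ± 0.10 on the log2 scale (edgeR adjusted p = 0.0335). PICK1i replicates 1, 2, 5 and 6 had 77.0, 69.5, 77.8 and 84.7 CPM of it, and the other PICK1i libraries 51.3 to 65.6 CPM. Vegfc, a ligand of Flt4 and Kdr, averaged 2.08 CPM with PICK1i and 4.19 CPM with saline, with 10.5 and 8.03 CPM in saline replicates 2 and 3 and 2.08 to 3.06 CPM in the other 6. It fell by 1.01 ± 0.32 (edgeR adjusted p = 0.0445), and its value was -0.28 without that pair (edgeR adjusted p = 0.385). Angpt1, the agonist of Tek, also named after its values were seen, had 35.2 and 26.8 CPM in the same pair and fell by 0.79 ± 0.25 (edgeR adjusted p = 0.0482), with -0.17 without it (edgeR adjusted p = 0.431). Pdgfd, a ligand of Pdgfrb, averaged 5.52 CPM with PICK1i and 8.85 CPM with saline, fell by 0.66 ± 0.16 (edgeR adjusted p = 0.0219) and was at -0.47 without the pair (edgeR adjusted p = 0.0854). Vegfa, the chief ligand of Kdr and again named after its values were seen, averaged 54.2 CPM with PICK1i, 40.0 CPM with PSD-95i and 44.0 CPM with saline. It had 0.29 ± 0.10 against saline (edgeR adjusted p = 0.0567), and PSD-95i against PICK1i gave -0.43 ± 0.10 (edgeR adjusted p = 0.0513).

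In the wall itself, 2 of 10 basement membrane genes changed. The collagen chain Col4a2 averaged 251 CPM with PICK1i and 196 CPM with saline and rose by 0.36 ± 0.10 (edgeR adjusted p = 0.0255). PICK1i replicates 1, 2, 5 and 6 had 277, 289, 318 and 268 CPM of it, and the other PICK1i libraries 195 to 231 CPM. Saline replicates 2 and 3 had 142 and 167 CPM, and the other saline libraries 188 to 228 CPM. The laminin chain Lamc1 fell by 0.37 ± 0.10 (edgeR adjusted p = 0.0254). It had 50.6 and 47.2 CPM in saline replicates 2 and 3, and 32.9 to 41.7 CPM in the other saline libraries. Among further junction genes, F11r (JAM-A) fell by 0.76 ± 0.23 (edgeR adjusted p = 0.0419). It had 29.5 and 22.3 CPM in saline replicates 2 and 3. The other saline libraries had 6.41 to 10.8 CPM, and those of either inhibitor at most 10.5 CPM. Of 14 genes of the Wnt pathway, which builds the barrier in development, 1 changed, the co-receptor Lrp6, down by 0.29 ± 0.08 (edgeR adjusted p = 0.0335). Saline replicates 2 and 3 had 49.7 and 56.9 CPM of it, and the other saline libraries 42.4 to 49.6 CPM. None of 10 Notch pathway genes, 9 BMP and TGF-beta pathway genes, 12 further barrier transporters or 7 arterial genes passed.

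Among 25 other endothelial identity genes, Cyyr1, Mmrn2, Clec14a and Podxl fell, by 0.54 ± 0.14, 0.50 ± 0.16, 0.65 ± 0.20 and 0.35 ± 0.10 on the log2 scale, with edgeR adjusted p-values of 0.0236, 0.0453, 0.0460 and 0.0276. Clec14a was named after its values were seen. Saline replicates 2 and 3 held the highest values of the 24 libraries for Cyyr1 (13.4 and 10.2 CPM) and Mmrn2 (12.3 and 12.7 CPM). The same pair was highest for Clec14a (7.53 CPM in both), but not for Podxl (47.0 and 47.7 CPM). Podxl (podocalyxin) averaged 37.2 CPM with PICK1i, 47.7 CPM with PSD-95i and 47.3 CPM with saline, and it kept -0.35 without saline replicates 2 and 3 (edgeR adjusted p = 0.0735). Ackr1, a chemokine-binding receptor of venules, was the 1 venous gene of 6 that changed, up by 0.36 ± 0.11 (edgeR adjusted p = 0.0383). It measured 16.2 and 16.4 CPM in saline replicates 2 and 3, against 25.5 CPM as the saline median. PICK1i replicates 1, 2, 5 and 6 had 32.9, 34.8, 37.7 and 33.2 CPM, and the other PICK1i libraries 26.1 to 28.2 CPM. Sncg, in the list of further mural genes and also made by neurons, averaged 70.1 CPM with PICK1i and 49.2 CPM with saline and rose by 0.50 ± 0.10 (edgeR adjusted p = 0.0175).

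Markers of tissue next to the vessels moved as well. All 15 tested leptomeningeal fibroblast genes had log2 fold changes below 0 with PICK1i, and Lum and Dcn, proteoglycans of the brain coverings, fell by 1.52 ± 0.42 and 1.36 ± 0.39 (edgeR adjusted p = 0.0282 and 0.0329). Saline replicates 2 and 3 held the highest values of both genes, and without them Lum had -0.99 (edgeR adjusted p = 0.138) and Dcn -0.93 (edgeR adjusted p = 0.139). With PSD-95i 14 of 15 were below 0 and none passed. The summed level of that list had medians of 152 CPM with PSD-95i, 116 CPM with PICK1i and 223 CPM with saline. In the library of each group with the highest smooth muscle sum, this list came to 410 CPM in PSD-95i replicate 1, 407 CPM in PICK1i replicate 2 and 638 CPM in saline replicate 7. The 5 globin and other red cell genes had a median log2 fold change of -1.50 with PSD-95i against saline, all 5 below 0 and with an unadjusted p under 0.05, and none passed after edgeR's adjustment. The part of these neighbours in the vessel values was not tested.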

How the data were processed

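Polyadenylated RNA of whole hypothalamus was sequenced as 52-base paired reads from a stranded library kit, per the labels' protocols. The authors deposited estimated counts, with no normalisation, for genes and for transcripts. Per the submitters' processing notes, bcl2fastq 2.20.0, STAR, Salmon and GRCm38 were used; the versions of STAR and Salmon, the annotation and the strand setting were not given in the sources used here, so reads of overlapping or antisense genes may not be told apart. Of the gene values, 94.3% were whole within 0.001.

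Estimated counts were rounded, filtered by filterByExpr (minimum count 10; 15667 genes with 99.3% of counts), given TMM factors and modelled together over the 24 libraries in edgeR 4.0.16 (R 4.3.3; quasi-likelihood, two-sided, 21 residual degrees of freedom), with Benjamini-Hochberg adjustment over all genes and a cutoff of 0.05. Levels are CPM on TMM-scaled totals, and TPM used transcript lengths from GENCODE M21, which held 108214 of 109617 transcripts. The step was tested on simulated data. Depth was 4762697 to 9228843 counts a library, and none of 84 pairs of replicates was identical. Flt1 shares were compared by exact permutation.

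Every member was named; of other lists, the 3 genes of smallest p in a comparison could be, and exceptions are stated. A single pathway gene's result is not reported here. Members and lists were chosen with earlier results of these data known. Alternatives were other scaling (RLE), filters, DESeq2 1.42.0, limma-voom (limma 3.58.1), blocks for replicate or library number, fits to 2 groups, single libraries left out, saline replicates 2, 3 and 7 left out in sets, PICK1i replicates 1, 2, 5 and 6 left out together, and an offset for transcript length chosen after seeing the data.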

Additional observations from a re-analysis of the deposited data

Results flagged for a closer look

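In each group of 8 libraries, the gap between the most extreme library and its neighbour was compared with the range of the group for the 36 members, their 3 summed levels and the soluble share of Flt1. The gap exceeded Dixon's 95% critical value for 8 values in 22 of 120 groups checked, where chance alone would flag about 1 in 20, and the genes checked in 1 library are not independent of each other.

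Saline replicate 7 gave 12 of the 22, each as the highest of its group: Vtn at 164 CPM, Acta2 at 44.3 CPM, Myh11 at 30.7 CPM, Myl9 at 24.6 CPM, Tagln at 22.7 CPM, Tek at 19.3 CPM, Pecam1 at 18.2 CPM, Esam at 17.9 CPM and Cnn1 at 2.42 CPM, with the sums of the endothelial (793 CPM), pericyte (365 CPM) and smooth muscle genes (125 CPM). PSD-95i replicate 1 was far above its group in mural genes, with Vtn at 80.2 CPM, Acta2 at 18.3 CPM, Tagln at 10.9 CPM and Anpep at 8.05 CPM. PICK1i replicate 2 stood out in Vtn alone, at 91.5 CPM. PICK1i replicate 1 stood out in endothelial and pericyte genes, with Cldn5 at 46.7 CPM, Tie1 at 20.1 CPM and Kcnj8 at 6.30 CPM. Tek at 16.2 CPM in PSD-95i replicate 6 and Pglyrp1 at 7.47 CPM in PSD-95i replicate 5 completed the 22. Saline replicates 2 and 3, which lie together, gave none, because the distance of 2 like libraries from the rest does not enter a gap between single neighbours.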

How the results depend on the processing

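PSD-95i against saline called 0 genes and 0 members under every alternative run. For PICK1i against saline, all genes called numbered 5 without saline replicates 2 and 3, 0 without saline replicates 2, 3 and 7, 0 without PICK1i replicates 1, 2, 5 and 6, 0 in a fit to the 2 groups alone, 316 by limma-voom with a random block for neighbouring library numbers and 714 with the offset for transcript length, against 1434 as reported. Members called were 0 in the first 4 of these settings, 1 with the random block, 1 with the length offset, 3 with no filter, 2 by limma-voom and 8 by DESeq2, against 5. For PSD-95i against PICK1i, where 0 were reported, the counts were 1208 without saline replicates 2 and 3, 1015 without saline replicates 2, 3 and 7, 665 with the stricter filter, 1359 by DESeq2 (each with 1 member) and 491 by limma-voom. Leaving out single libraries gave 299 (PICK1i replicate 5) to 2757 genes (PICK1i replicate 7) and 1 to 6 members for PICK1i against saline, and 0 to 2315 genes (PICK1i replicate 7) and 0 to 2 members for PSD-95i against PICK1i. The cause of these changes was not tested.

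Fold changes past an unadjusted 0.05 reversed for Plvap with PSD-95i against saline (0.040 without saline replicates 2 and 3, -0.96 as reported), for Plvap with PICK1i against saline (0.23 without that pair and 0.19 without replicates 2, 3 and 7, -0.77 as reported) and for Emcn with PSD-95i against saline (0.013 without replicates 2, 3 and 7, -0.59 as reported). Of 3762 recomputed member values, 3665 kept their direction and side of the threshold or had passed in neither fit, and 149 of those changed sign with a reported size of at most 0.394. With the replicate block, members called in PICK1i against saline numbered 2 and all genes 1127; same-numbered libraries correlated at -0.194 to 0.150, and the numbers were not treated as pairs. Summed levels and Flt1 shares moved by less than 1 SD under every alternative run. Depth limits the low members most: Cnn1 could not be tested, and Anpep, Kcnj8, Erg and Pglyrp1 rest on a few CPM.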
